A study of Rattus norvegicus with 6 samples.

Results

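The messenger RNAs of the cytosolic ribosomal proteins were followed in rat rheumatoid arthritis fibroblast-like synoviocytes (RA-FLS), the connective tissue cells that line the joint, by RNA-seq. The members were the protein-coding rows of the count table that carry an Rpl or Rps number with at most a final a or x, or are named Rplp0, Rplp1, Rplp2 or Rpsa. This rule took 81 of the 34156 rows, 50 for the large subunit and 31 for the small subunit. They carry 73 gene names, because 14 rows share 6 names. Rpl10a and Rpl23a were listed at 0 in every library, and the other 79 rows had enough counts to be tested.

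Both groups were wild-type RA-FLS, bought as a culture, that received 10 ng/mL TNF-α, the inflammatory cytokine used to drive the arthritis model. The TNF-α group (n = 3 libraries) received nothing else, and the TNF-α+EMO group (n = 3 libraries) also received 80 μmol/L emodin (EMO), an anthraquinone of rhubarb. The labels give day 5 for every library, whereas the methods describe a shorter incubation. Cells without TNF-α and cells with EMO alone were not analysed here. The comparison asks how the transcripts of the ribosome's own proteins stood when EMO was added to TNF-α.

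A ribosome is built from a large subunit, which joins amino acids, and a small subunit, which reads the messenger RNA. Each subunit is folded ribosomal RNA dressed with a fixed set of proteins. Nearly all are present as a single copy, so that the proteins are needed in matching amounts. In mammals most of their messenger RNAs begin with a C followed by a run of C and T bases at the 5′ end, the terminal oligopyrimidine (TOP) motif, through which growth signalling by mTOR controls their translation. Fibroblasts that grow and secrete matrix keep a large pool of ribosomes.

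The start sites of 8 members are shown, because they include members among the largest changes (Rplp1, Rpl19, Rpl10), the most abundant one (Rplp0), and members that changed little or the other way (Rpl3, Rpl11), with Rpl5 and Rps3 between them. Each window holds the 15 bases before and the 15 bases from the start site of the RefSeq gene on the GRCr8 build, on the strand of the gene, and capitals mark the unbroken run of C and T that touches the start.
Rplp1, chr8:71290858-71290887, minus strand: gcaggcgcatgtgaTCCTTTCCTCagctgc
Rpl19, chr10:83519049-83519078, plus strand: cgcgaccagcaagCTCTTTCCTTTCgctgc
Rpl10, chrX:157205835-157205864, plus strand: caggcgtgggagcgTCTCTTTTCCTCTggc
Rplp0, chr12:46718376-46718405, minus strand: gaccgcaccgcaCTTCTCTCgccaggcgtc
Rps3, chr1:163195762-163195791, minus strand: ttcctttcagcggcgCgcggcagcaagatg
Rpl5, chr14:1995211-1995240, minus strand: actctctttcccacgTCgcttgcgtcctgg
Rpl11, chr5:153560788-153560817, minus strand: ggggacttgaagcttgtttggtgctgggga
Rpl3, chr7:113507976-113508005, minus strand: ccagcgcctgctcgaTCTCTatcggcggcg

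RefSeq promoters were found for 58 of the 73 names, with 59 entries. A run of at least 5 C or T bases at the start site was present in 61.0% of these entries and in 11.96% of 33469 rat promoters. The stricter pattern, a C as the first base followed by 4 bases that are each C or T, was present in 35.6% of the members' entries and in 2.63% of all promoters. It was found in 16 of 37 large subunit entries and 5 of 22 small subunit entries.

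The libraries held 16813322 to 17794455 counts. EMO went with wide change across the transcriptome, and 80.9% of the 13614 genes tested passed an adjusted p under 0.05 (edgeR quasi-likelihood test, Benjamini-Hochberg). Transcripts of the mitochondrial chromosome took 3.35% to 3.58% of counts with TNF-α and 0.363% to 0.399% with EMO. Of 12 synovial fibroblast markers, 8 were tested and all 8 were lower with EMO, and their summed normalized count was 212239 to 232254 with TNF-α and 35174 to 37851 with EMO. Col1a1, Pdgfra and Vcam1 were abundant with TNF-α, whereas Thy1, Prg4 and Pdpn were near 0 in both groups. Of the markers of other cell types, 2 of 8 for macrophages (Cd14 lower, Cd68 higher), 1 of 4 for endothelium (Vwf lower), 2 of 7 for epithelium (Krt8 lower, Cldn4 higher) and 0 of 4 for T cells had enough counts to be tested. Their summed normalized counts were 1205 to 1310 with TNF-α and 734 to 804 with EMO for macrophages, 69.2 to 76.5 and 13.2 to 21.7 for endothelium, 9950 to 10812 and 1984 to 2333 for epithelium, and at most 4.90 in any library for T cells. Fap, a fibroblast marker, and Vwf had enough counts to be tested only through their TNF-α libraries, and Cldn4 only through its TNF-α+EMO libraries. Fewer cells of a type and less RNA per cell cannot be told apart in such bulk samples, and the part of these shifts in the values below was not tested. The third TNF-α+EMO library stood apart in the members, as described where it matters.

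Transcripts of ribosomal proteins took a larger share of the transcriptome when EMO was present, in both subunits. With TNF-α alone the 81 rows held 3.79%, 3.60% and 3.80% of a library's counts, and with EMO added they held 7.004%, 7.13% and 7.80%. The groups did not overlap, and the mean share was 3.73% ± 0.115 (SD, n = 3) against 7.31% ± 0.429 (SD, n = 3), a ratio of 1.96. With the mitochondrial transcripts left out of the total the ratio was 1.90.

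**Figure D1:**
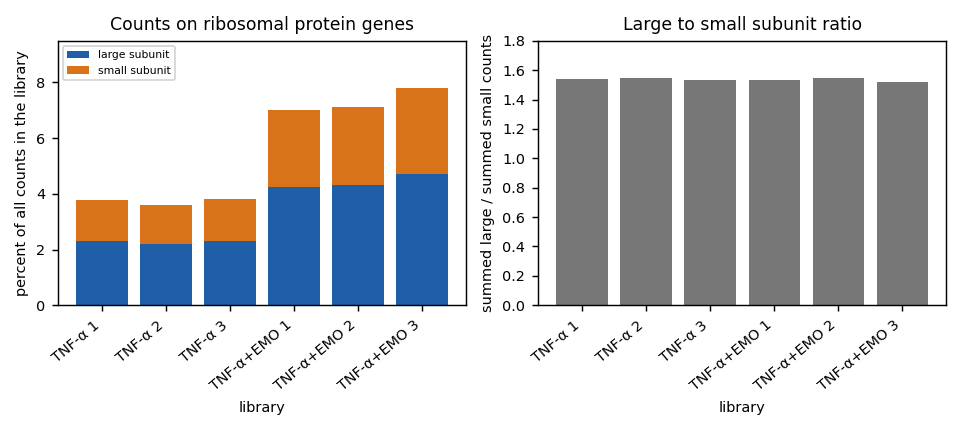
The left panel plots, for each of the 6 libraries, the percent of all counts on large subunit (blue) and small subunit (orange) members as stacked bars, and the right panel plots the summed large over summed small subunit counts. The total share was 3.60% to 3.80% with TNF-α and 7.004% to 7.80% with TNF-α+EMO, while the ratio lay between 1.52 and 1.55 in every library.

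Among the 79 tested members, 73 were higher with EMO and 1 was lower at an adjusted p under 0.05 (edgeR), and 5 did not pass. Over all genes tested, 39.4% were higher and 41.4% were lower. A rise of more than 2-fold was called for 44 members, against 19.5% of all genes, and a fall of more than 2-fold for 0 members, against 27.8% of all genes. The median log2 fold change of the members was 1.03 and the middle of the list was narrow, from 0.83 to 1.22 at the quartiles, whereas the median of all genes was -0.01 with quartiles at -1.21 and 0.80. In 74 members every TNF-α+EMO library lay above every TNF-α library and in 1 every one lay below, where 40.3% and 42.5% of all genes did so (82.9% in either direction). The counts of members higher, over 2-fold and above each include Rplp2, which had enough counts to be tested only through its TNF-α+EMO libraries. Without the third TNF-α+EMO library the count of members higher was again 73, the count over 2-fold was 33 and the median was 0.93. The count over 2-fold was also 28 with library totals in place of TMM, 26 with totals without mitochondrial rows and 17 with an offset for gene length.

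**Figure D2:**
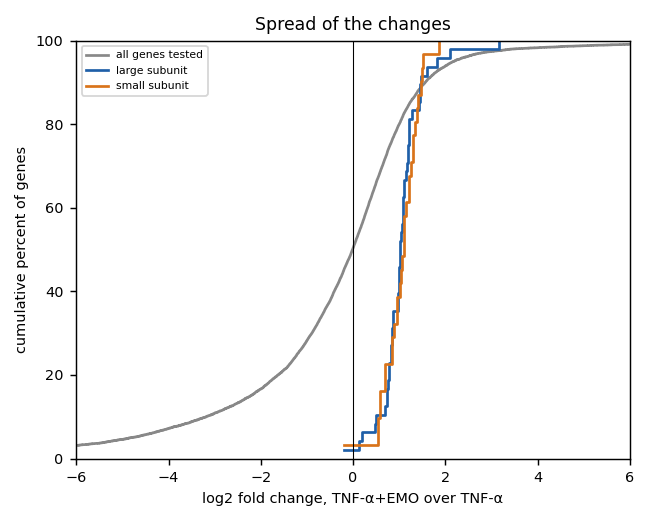
Cumulative percent of genes (vertical axis) against the log2 fold change of TNF-α+EMO over TNF-α (horizontal axis, drawn from -6 to 6) for all 13614 genes tested, 48 large subunit members and 31 small subunit members. The members' curves rise steeply around 1, with medians of 1.02 and 1.10, and the curve of all genes spreads on both sides of 0.

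The large and small subunits moved by nearly the same amount. Of 48 tested large subunit members, 45 were higher and 1 lower, with 26 over 2-fold and a median log2 fold change of 1.02. Of 31 small subunit members, 28 were higher and 0 lower, with 18 over 2-fold and a median of 1.10. The share of counts on the large subunit was 2.26% ± 0.0669 with TNF-α and 4.42% ± 0.244 with EMO, and that on the small subunit 1.47% ± 0.0484 and 2.89% ± 0.186 (SD, n = 3 each). The ratio of large to small subunit counts was 1.54, 1.54 and 1.53 with TNF-α and 1.53, 1.55 and 1.52 with EMO added. The groups overlapped in this ratio, and their means differed by -0.0052 on the log2 scale. Whichever single library was left out, that difference lay between -0.012 and 0.0028.

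**Figure D3:**
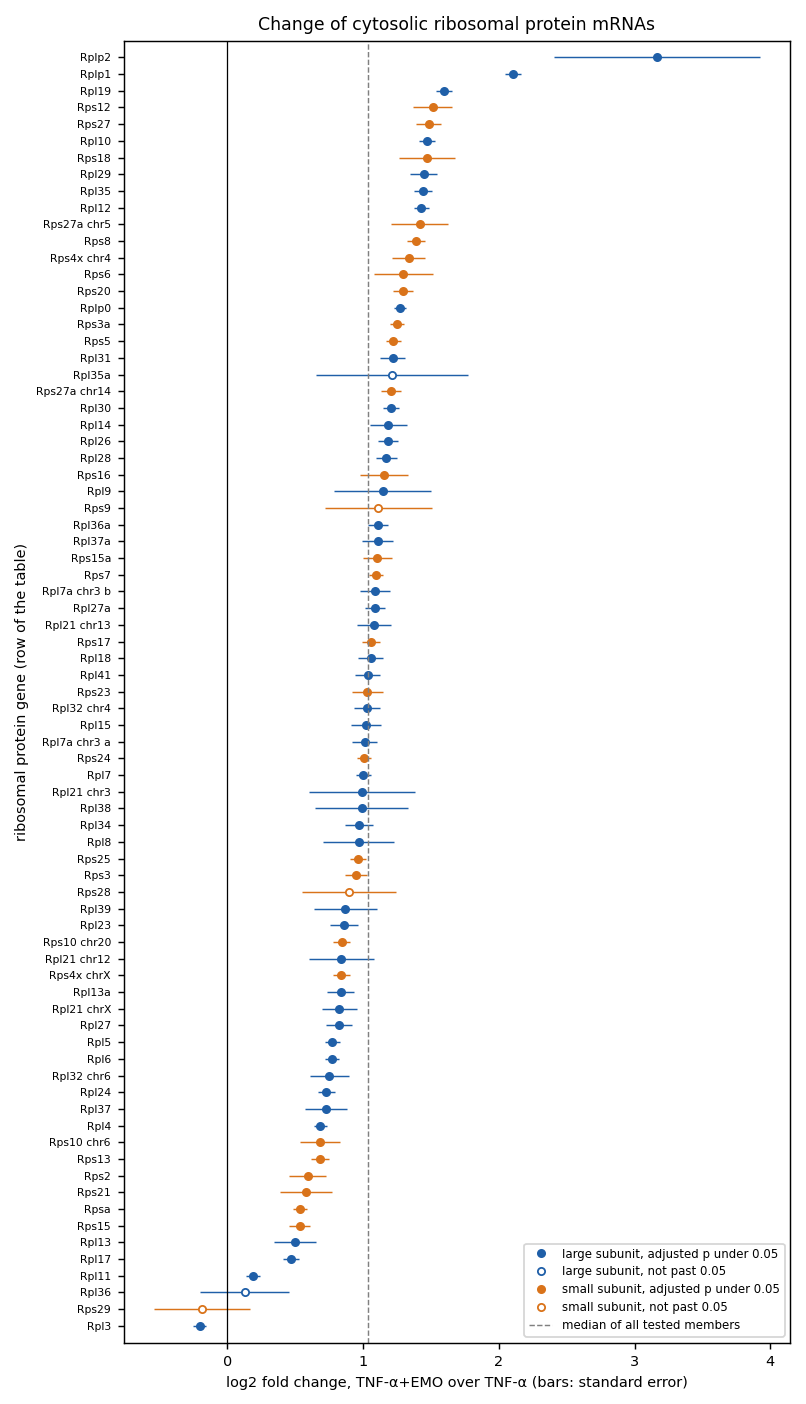
Log2 fold change of TNF-α+EMO over TNF-α with its standard error (horizontal axis) for 77 tested members (vertical axis), large subunit in blue and small subunit in orange, filled where the adjusted p was under 0.05. The colours are mixed around the dashed median of all tested members at 1.03, Rpl3 is the only filled point below 0, and Rplp2 at the top has the widest bar. Where a name has several rows its chromosome is added.

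The P stalk of the large subunit recruits and activates the elongation factors. Its 3 tested members all rose, where 92.4% of all tested members and 39.4% of all genes tested did. Their median log2 fold change of 2.10 depends on the Rplp2 row, which held few reads. With its copies added, Rplp2 was at 1.19, below the 1.27 of Rplp0 and beside a median of 1.03 for all members. Rplp0, the base of the stalk and the member with the highest level per kilobase of gene, had normalized counts of 42636, 41593 and 43419 with TNF-α and 100858, 103146 and 104308 with EMO. The groups lay far apart, with a log2 fold change of 1.27 (SE 0.05, adjusted p = 9.2e-10, edgeR). Rplp1, a stalk arm, had 10589, 10439 and 10055 with TNF-α and 41777, 46555 and 45073 with EMO, a log2 fold change of 2.10 (SE 0.06, adjusted p = 1.1e-10, edgeR). It was 4.29-fold higher, the second highest change of the members. Rplp2, the partner of Rplp1 in the stalk, had the highest fitted change but only 5, 0 and 2 counts with TNF-α and 13, 13 and 37 with EMO. Its log2 fold change of 3.17 (SE 0.76) rested on few reads and ranged from 2.48 to 4.30 when single libraries were left out. The row had enough counts to be tested only through its TNF-α+EMO libraries, so its call carries no weight. Nearly all reads of this protein were counted elsewhere, as 99.9% lay on 3 rows described as copies of Rplp2. With those added, the counts were 5626, 5713 and 6206 with TNF-α and 12088, 13831 and 12111 with EMO, and the log2 fold change was 1.19 (SE 0.07).

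Rpl5 and Rpl11 travel with the 5S ribosomal RNA and, outside the ribosome, bind the p53 regulator MDM2. Both rose, but neither reached 2-fold. Rpl5 had normalized counts of 13168, 13027 and 13324 with TNF-α and 21651, 22075 and 23780 with EMO, a log2 fold change of 0.77 (SE 0.05, adjusted p = 1.9e-07, edgeR). Rpl11 had 8360, 8150 and 8153 with TNF-α and 9348, 9396 and 9326 with EMO. The groups were tight and apart, yet the difference was small, at 0.19 on the log2 scale (SE 0.05, adjusted p = 0.0059, edgeR). Its call was lost when libraries were scaled by their totals alone (0.073, adjusted p = 0.22) or by totals without mitochondrial rows (0.028, adjusted p = 0.63).

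Around the peptidyl transferase centre, where the peptide bond forms, 3 of the 4 members rose and Rpl3 fell. The share higher was 92.4% over all tested members and 39.4% over all genes tested. Rpl3, whose tip reaches the centre, had normalized counts of 23480, 23026 and 22887 with TNF-α and 19934, 20124 and 20162 with EMO. All 3 TNF-α+EMO libraries lay below all 3 TNF-α libraries, and the log2 fold change was -0.20 (SE 0.05, adjusted p = 0.0024, edgeR). It was lower in each of the alternatives tried except 1, an offset for gene length, in which it was 0.089 (adjusted p = 0.11). The gene model of Rpl3 in the table spans chromosome 7 from 121297355 to 121311565 on Rnor_6.0 with 3506 bases of exon, long for this family, and overlaps Syngr1 on the other strand, whose highest count was 3.50% of that of Rpl3. Rpl10, which completes the large subunit late and lies by the tRNA sites, had 15022, 14864 and 14153 with TNF-α and 39487, 38920 and 43721 with EMO. It rose by 1.47 on the log2 scale (SE 0.06, adjusted p = 2.1e-09, edgeR), the opposite of Rpl3 although both are abundant. Rpl4, which lines the upper tunnel, was 1.61-fold higher, and Rpl8 was 1.95-fold higher at a lower level. Of the reads of Rpl8, 65.6% were on 2 copy rows. With those added its log2 fold change was 1.07 (SE 0.36, adjusted p = 0.043, edgeR).

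The nascent chain leaves through the exit tunnel, and all 7 tested proteins of its wall and rim rose, with a median log2 fold change of 1.18. Of all tested members 92.4% were higher, and of all genes tested 39.4%. Rpl19 had normalized counts of 14072, 13618 and 12938 with TNF-α and 39847, 39759 and 43388 with EMO, a log2 fold change of 1.60 (SE 0.06, adjusted p = 8.7e-10, edgeR). Rpl17, at the same exit, had 4277, 4102 and 3908 with TNF-α and 5762, 5614 and 5622 with EMO. Its log2 fold change of 0.47 (SE 0.06, adjusted p = 1.8e-05, edgeR) was the lowest of the tunnel. It overlaps RGD1562987 on the same strand, whose highest count was 29.6% of its own. Rpl39, a very short tunnel protein, had 55.9, 56.6 and 68.2 with TNF-α and 88.7, 97.2 and 145 with EMO (log2 fold change 0.87, SE 0.23, adjusted p = 0.0053, edgeR). This row lies within Igfbp7, which had more counts than the row itself, and 97.3% of the reads of this protein were on 6 copy rows. With those added the log2 fold change was 1.03 (SE 0.08). Rpl23a was at 0, and 2 copy rows gave 280, 379 and 269 counts with TNF-α and 567, 623 and 1190 with EMO. Rpl22 had no row under the rule and was not analysed here as a member.

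Rpl12, which with Rplp0 forms the stalk base, was 2.69-fold higher. Rpl36 did not pass the test. It had normalized counts of 7155, 4923 and 5499 with TNF-α and 4830, 5157 and 9242 with EMO, so that only the third TNF-α+EMO library lay above the TNF-α libraries. Its log2 fold change was 0.13 (SE 0.33, adjusted p = 0.73, edgeR), and -0.24 without that library.

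In the head of the small subunit, which swivels as messenger RNA and tRNA move, 11 of 13 tested rows rose (84.6%), with a median log2 fold change of 0.96. This share lay near the 92.4% of all tested members, and 39.4% of all genes tested were higher. Rps3, which guards the messenger RNA entry and also acts in DNA repair, had normalized counts of 12535, 11864 and 12410 with TNF-α and 21395, 22765 and 26801 with EMO. It rose by 0.95 on the log2 scale (SE 0.08, adjusted p = 7.9e-07, edgeR). Rps20, whose level per kilobase was among the 3 highest, had 11258, 10841 and 11108 with TNF-α and 24677, 26902 and 29838 with EMO, a log2 fold change of 1.29 (SE 0.07, adjusted p = 1.9e-08, edgeR). The head members that did not pass were Rps28 and Rps29. Rps28 had 1781, 1651 and 2009 with TNF-α and 2572, 2474 and 5081 with EMO (adjusted p = 0.064, edgeR), without overlap.

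Rps29 had the second lowest log2 fold change of the members, -0.19 (SE 0.35, adjusted p = 0.63, edgeR), from 46.1, 45.8 and 105 normalized counts with TNF-α and 50.5, 47.1 and 75.4 with EMO. The groups overlapped. The row held few of the reads of this protein, and 99.2% were on 3 copy rows. With those added, the counts were 6236, 5289 and 6435 with TNF-α and 8439, 8080 and 11412 with EMO, and the log2 fold change was 0.71 (SE 0.14, adjusted p = 0.0016, edgeR).

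In the body and platform of the small subunit, 15 of 16 tested rows rose (93.8%), with a median log2 fold change of 1.10. Rps9 did not pass (adjusted p = 0.053, edgeR). The share was close to the 92.4% of all tested members, beside 39.4% of all genes tested. Rpsa, which is also known as the laminin receptor, had normalized counts of 21717, 22389 and 23811 with TNF-α and 32224, 33524 and 32705 with EMO. It changed less than most of its neighbours, by 0.54 (SE 0.05, adjusted p = 3.6e-06, edgeR). Rps6, the target of the S6 kinases downstream of mTOR, had 182, 191 and 207 with TNF-α and 334, 450 and 642 with EMO. It rose by 1.30 (SE 0.22, adjusted p = 5.1e-04, edgeR), with the third TNF-α+EMO library highest. Of the reads counted for this protein, 67.2% were on 1 copy row, and with that row added the value was 1.31.

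The 6 names with several rows gave the same direction in each of their rows. Rps27a, made as a fusion of ubiquitin to a ribosomal protein, had normalized counts of 8698, 8516 and 8072 with TNF-α and 20931, 17558 and 19886 with EMO on chromosome 14, a log2 fold change of 1.21 (SE 0.07, adjusted p = 3.8e-08, edgeR). Its row on chromosome 5 had 3322, 2597 and 2949 with TNF-α and 7432, 10166 and 6069 with EMO, a log2 fold change of 1.42 (SE 0.21, adjusted p = 0.0013, edgeR). That row overlaps Foxj3 on the other strand, whose highest count was 26.4% of its own. Rps4x, the X-encoded small subunit protein, had 11950, 11762 and 11495 with TNF-α and 22015, 21699 and 19273 with EMO on chromosome X (log2 fold change 0.84, SE 0.06, adjusted p = 2.7e-07, edgeR). Its row on chromosome 4 had 1670, 1814 and 2257 with TNF-α and 4378, 4632 and 5473 with EMO (log2 fold change 1.33, SE 0.12, adjusted p = 7.7e-06, edgeR). Near-identical rows can exchange reads, so the 2 values of a name are not independent.

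Rpl21 had 4 rows, on chromosomes 3, 12, 13 and X, with log2 fold changes of 1.00, 0.84, 1.08 and 0.82. The row on chromosome 3 was among the 3 members with the lowest level per kilobase, with normalized counts of 20.6, 8.78 and 13.6 with TNF-α and 36.1, 30.7 and 19.4 with EMO. Its groups overlapped and its call (SE 0.39, adjusted p = 0.036, edgeR) was lost in 8 of the 16 alternatives that gave it a value. Rpl9, also among those 3, had normalized counts of 20.6, 36.1 and 66.2 with TNF-α and 79.4, 92.1 and 101 with EMO (log2 fold change 1.15, SE 0.36, adjusted p = 0.012, edgeR). Of the reads of that protein, 99.4% were on 4 copy rows, and with them added the log2 fold change was 0.81 (SE 0.06).

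Reverse-transcribed copies of ribosomal protein genes, without introns, are common in mammalian genomes. How the repeated and copy rows of this table arose was not tested. In the table, 14 member rows were as long as their genomic span and so had no intron. Each of these 14, and no other member, lay on a chromosome other than the one RefSeq gives for its symbol on GRCr8. Besides Rps27a on chromosome 5 and Rps4x on chromosome 4, they include 3 rows of Rpl21 and the only rows of Rpl9, Rpl35a, Rpl37, Rpl38, Rpl39, Rps13 and Rps29. Of the 14 rows, 12 rose (85.7%), and their median log2 fold change was 0.93. Of the 65 tested rows with introns 61 were higher (93.8%) and 1 lower, with a median of 1.06. Over all genes tested the share higher was 39.4%. A further 109 rows outside the naming rule are described as copies of a member. Of these, 62 were tested, 47 were higher and 0 lower (39.4% and 41.4% over all genes tested), with a median of 1.30. Among the 50 proteins that have copy rows, 13 had more reads on copies than on their largest member row. Of the members listed at 0, Rpl23a was called higher with its copies added (log2 fold change 1.43, SE 0.35, adjusted p = 0.012, edgeR). Rpl10a was not called (0.47, SE 0.51, adjusted p = 0.44, edgeR). Its copies held 687, 610 and 649 counts with TNF-α and 1492, 523 and 537 with EMO. With all copies added to their members, 76 of 81 were higher, 1 was lower and 49 were higher by more than 2-fold.

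The third TNF-α+EMO library carried more ribosomal protein transcripts than the other 2. It was the highest of its group in 60 of 79 tested members, and the median ratio of its value to the mean of the other 2 libraries was 1.16, against 0.99 over all genes tested with a mean of at least 100 normalized counts. The median log2 value of the members over the TNF-α mean was 0.91, 0.95 and 1.22 in the EMO-treated libraries. The ratio passed 1.5 in 11 members, namely Rpl8, Rpl35a, Rpl36, Rpl39, Rplp2, Rps6, Rps9, Rps16, Rps18, Rps28 and Rps29. All 5 members that missed the threshold are among them. Rps9 had normalized counts of 1208, 1161 and 1452 with TNF-α and 1827, 2140 and 4298 with EMO, and Rpl35a had 110, 131 and 184 with TNF-α and 168, 233 and 586 with EMO (adjusted p = 0.0995, edgeR). The median coefficient of variation of the members was 4.77% among TNF-α and 10.9% among TNF-α+EMO libraries.

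**Figure D4:**
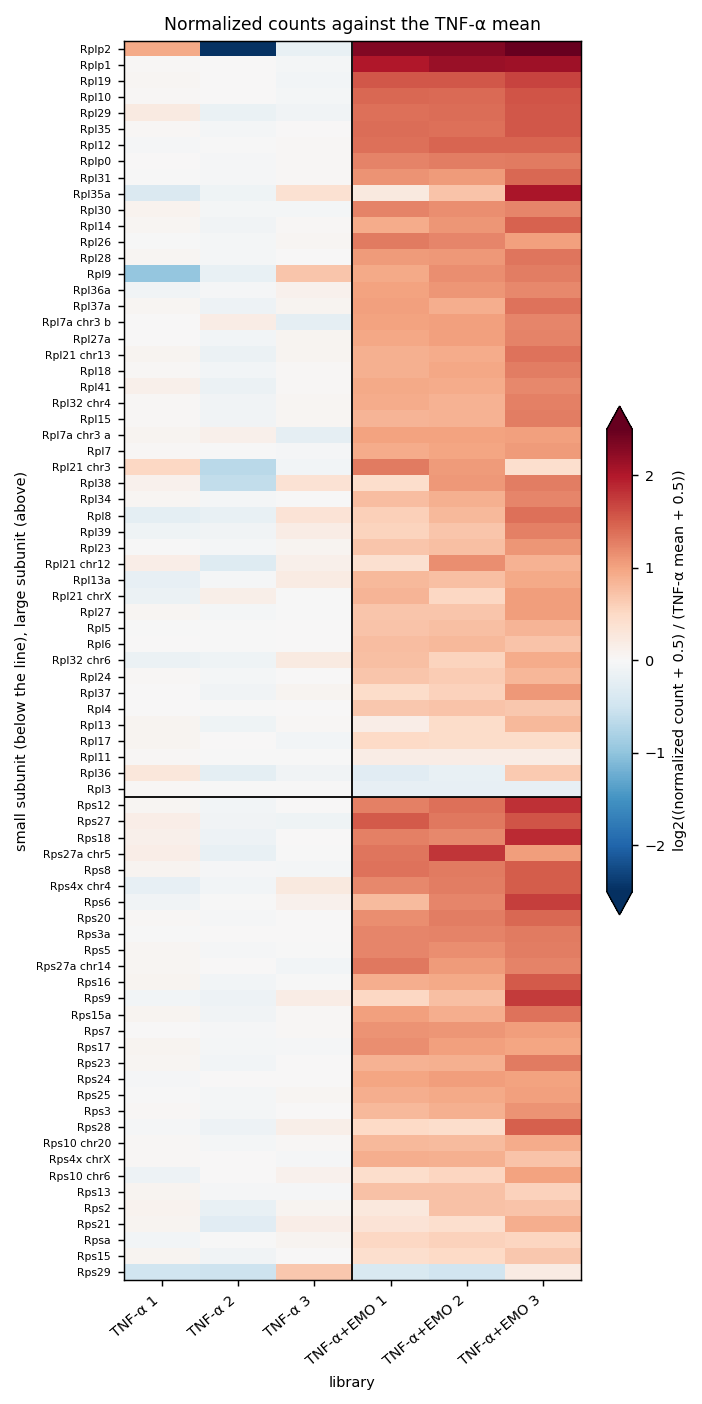
Each row is 1 of 77 tested members, small subunit below the line and large subunit above it, and each column is 1 of the 6 libraries. Colour gives log2 of the normalized count plus 0.5 over the mean TNF-α count plus 0.5, from blue (lower) to red (higher). The 3 TNF-α columns are mostly pale and the 3 TNF-α+EMO columns mostly red, and the third of these is the highest in 58 members. Rpl3 at the bottom of the large subunit is pale blue in each TNF-α+EMO column. Rpl36 and Rps29 are pale blue in the first and second of them, and Rplp2 is dark blue in the second TNF-α column.

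Ribosomal protein genes are short, and gene length moved with the fold change across the transcriptome. The tested members had a median length of 662 bases against 2248 for all genes tested. Over the 13614 genes, Spearman's rho of log2 fold change and length was -0.22, and over the 79 members it was 0.078, both given as descriptions since genes are not independent. The 3727 other genes under 1500 bases had a median log2 fold change of 0.34 and 45.6% of them were higher, while the 9808 longer ones had a median of -0.17 and 36.7% were higher. With an offset fitted for length in each library, 63 members were higher, 0 lower and 17 higher by more than 2-fold, with a median of 0.64. With the same offset the median of all genes tested was 0.061. The share of all genes called in that fit is not reported here. With the offset the medians were 0.64 for the large and 0.77 for the small subunit. Of the members followed singly in the alternatives, Rpl17 (0.077), Rpl39 (0.42), Rpl9 (0.76) and the chromosome 3 row of Rpl21 (0.59) no longer passed. Neither did Rpl3 (0.089), the member called lower without the offset. The other members that lost their call are not listed here. The part of length in the rise was not tested beyond this offset.

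**Figure D5:**
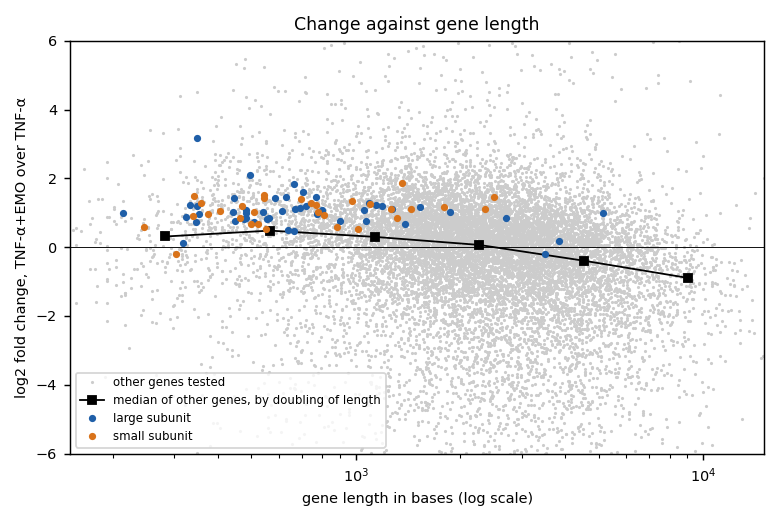
Log2 fold change of TNF-α+EMO over TNF-α (vertical axis, drawn from -6 to 6) against gene length in bases (horizontal log axis), with other genes in grey, large subunit members in blue and small subunit members in orange. Black squares give the median of the other genes in each doubling of length. It is 0.31 between 200 and 400 bases and 0.48 between 400 and 800 bases, and falls from there to -0.90 between 6400 and 12800 bases.

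Fold changes were set beside the pyrimidine start as a description. The 20 tested names with a C start and 4 further pyrimidines had a median log2 fold change of 1.20, from 0.47 to 2.10, and 19 of them were higher. The 37 tested names whose start lacks it had a median of 0.95, from -0.20 to 3.17, and 33 were higher. The upper end is the Rplp2 row, which had enough counts to be tested only through its TNF-α+EMO libraries. Among all tested members 92.4% were higher, and among all genes tested 39.4%. In the windows printed above, Rplp1, Rpl19, Rpl10 and Rplp0 carry the pattern. Rpl3 has a run of 5 that opens with T, Rpl5 a run of 2, Rps3 a run of 1, and Rpl11 none. The windows were chosen in part by fold change, so they do not show how pattern and change go together. Outside them, Rpl17 carries the pattern and had a log2 fold change of 0.47, and Rps12 has no run and had 1.51. Of the tested names, 4 with the pattern and 2 without it have only an intronless row on another chromosome than the RefSeq gene. The start site is then not that of the row. Without those names the medians were 1.23 (16 names) and 0.95 (35 names). The RefSeq start may not be the one used in these cells.

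Of the genes mutated in Diamond-Blackfan anaemia, an inherited failure of red cell production, 17 rows were tested, 14 were higher and 0 lower (39.4% and 41.4% over all genes tested), with a median log2 fold change of 1.02. The 3 that did not pass were Rpl35a, Rps28 and Rps29. Rps19 and Rps26 of this list had no row under the naming rule, and neither had Rps14 of the body and platform list.

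Genes tied to ribosomal proteins but outside the naming rule were listed by role. Rack1 and Fau encode further components of the ribosome, and both rose. Fau had few reads, and its call was lost when any of 4 single libraries was left out. Rack1, a scaffold on the small subunit, had a mean normalized count of 16045 ± 320 with TNF-α and 36646 ± 499 with EMO (SD, n = 3 each). Its log2 fold change was 1.19 (SE 0.05). Of 8 paralogs with tissue-restricted or auxiliary roles, 4 were tested and all 4 rose, from Rpl22l1 (0.45, SE 0.06) to Rps27l (1.63, SE 0.07). Rpl22l1 was not called with the length offset (0.032), and the other 4 had at most 3 counts in every library.

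Chaperones and importins bring new ribosomal proteins to the nucleus, and of 12 tested, 8 rose, 2 fell and 2 did not pass. Pdcd2 (log2 fold change 2.34, SE 0.10) and Pdcd2l (2.09, SE 0.10), dedicated to Rps2, rose most, and the importin Ipo5 was 1.47 higher (SE 0.07). Ipo9 fell by 2.05 (SE 0.08), from 3303 ± 76.4 to 799 ± 75.8 normalized counts (SD, n = 3 each), and Tnpo1 had -0.28 (SE 0.09, adjusted p = 0.013, edgeR), which turned to 0.70 with the length offset and was not called without the third TNF-α library (-0.25). Kpnb1 (0.02, SE 0.07) and Heatr3 (-0.08, SE 0.10) did not pass. Among 7 tested enzymes that modify ribosomal proteins, 6 rose and 1 fell, but the calls of Mettl18 and Ogfod1 among the 6 were lost in 7 and 8 of the 17 alternatives. The kinases of Rps6 split, as Rps6kb2 rose by 1.41 (SE 0.10) and Rps6kb1 fell by 0.61 (SE 0.08), and Prmt3, which methylates Rps2, rose by 1.37 (SE 0.07). The test of whether these lists differ from other genes was not made, and 39.4% of all genes were higher and 41.4% lower.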

How the data were processed

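RNA was poly(A)-selected, and the libraries were read from both ends on an Illumina sequencer. The submitters' processing notes name FastQC, Trimmomatic, HISAT2 and the Rnor_6.0 build. The counting program, annotation version, strand setting and treatment of reads that map to several places are not given in the sources used here. The authors deposited raw counts per gene and library, with the gene length in bases and FPKM values, which they scaled by length and mapped reads. FPKM was used for no result. A second deposited table holds the authors' group means, fold changes, p-values and adjusted p-values and was not used. Rows without a gene name (1306) took 0.741% to 0.946% of counts.

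A gene was tested when 3 or more libraries held 10 or more counts (13614 genes), with edgeR 4.0.16 in R 4.3.3 (TMM, robust quasi-likelihood F test, Benjamini-Hochberg over all genes tested, threshold 0.05). DESeq2 1.42.0 and other scalings, filters, offsets and left-out libraries were alternatives, and the fit was tested on simulated data. SE is the size of the log2 fold change over the square root of F. Normalized counts are counts scaled by TMM effective library size, and levels per kilobase divide them by gene length. Copy rows were found from gene descriptions. The methods call the 3 libraries of a group biological replicates without saying whether they came from separate cultures, so p-values measure the spread between these samples. A count of 3 is the floor at this depth, which covers counting error only. With 3 against 3 libraries an exact permutation test cannot go below p = 0.1.

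Promoters came from RefSeq (GRCr8) and were matched by symbol, and no coordinate was moved between builds. Members, lists and tests were chosen with earlier results of these data known. Named with values are members fixed by role, the 5 highest and 5 lowest fold changes, members called against the others, and the 3 highest and 3 lowest levels per kilobase. Rpl4, Rpl8, Rpl12, Rpl35a, Rps9, Rps12 and Rps28 were named after their values were seen. So were members listed for copies or for the third TNF-α+EMO library, and Tnpo1, Kpnb1, Heatr3, Rps6kb1, Mettl18 and Ogfod1. The values of some single genes are not reported here.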

Additional observations from a re-analysis of the deposited data

How the results depend on the processing

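Under the 17 alternatives, 6 of which left out 1 library each, the count of members higher ranged from 63 to 76 around the reported 73, and the direction of the members' median did not change. The count over 2-fold, reported as 44, was 28 with library totals, 26 with totals without mitochondrial rows and 17 with the gene length offset, and without 1 library it ranged from 33 to 50. Library totals shifted the median of all genes from -0.01 to -0.12, totals without mitochondrial rows to -0.17 and the length offset to 0.061. The medians of all, large and small subunit members were 0.87, 0.86 and 0.94 with totals without mitochondrial rows, and 0.64, 0.64 and 0.77 with the length offset, where the lower counts of the members and of the large subunit were both 0. Without 1 library the small subunit median ranged from 0.96 to 1.11. The large minus small subunit median, reported as -0.074, was -0.13 with the length offset and -0.064 with copies added, and ranged from -0.060 to -0.0048 without 1 library. The log2 change of the large to small count ratio was -0.022 with copies added.

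Of 50 named genes, 35 kept call and direction in every alternative. Rpl3 turned to 0.089 with the length offset. Rpl36 turned to -0.032 with totals without mitochondrial rows and -0.33 with the length offset, and without 1 library ranged from -0.24 (the third TNF-α+EMO library left out) to 0.30. Rps29 turned to 0.71 with copies added and without 1 library ranged from -0.44 to 0.33 (the third TNF-α library left out). Kpnb1 turned to -0.024 with upper-quartile factors, -0.095 with library totals, -0.14 with totals without mitochondrial rows, -9.5e-04 with at least 50 counts, and without 1 library ranged from -0.041 to 0.074, with negative values when the first library of either group was left out. Tnpo1 turned to 0.70 and Heatr3 to 0.19 with the length offset. The cause was not tested.

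The labels number the replicates alike in both groups, but same-numbered libraries did not deviate together (correlations 0.019, -0.0068 and 0.068). With the replicate number as a block, 75 members were higher, 1 was lower and 46 were over 2-fold, and the large minus small median was -0.038.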

Other observations

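Besides the named members, 24 rows without a gene name carry a ribosomal protein domain in their description, and 20 of them were tested. Of these, 11 were higher with EMO and 1 was lower (39.4% and 41.4% over all genes tested), with a median log2 fold change of 0.98. The S12/S23 row below and an L7Ae domain row on chromosome 2 had enough counts to be tested only through their TNF-α+EMO libraries. The L23 row below had enough only through its TNF-α libraries. The direction of these calls was fixed by the filter on counts, so they carry no weight. A row with the S26e domain, a protein for which the naming rule found no member, had counts of 8543, 8213 and 8645 with TNF-α and 10447, 11157 and 13201 with EMO (log2 fold change 0.52, SE 0.08). A row with an S12/S23 domain on chromosome 1, from 1820817 to 1825774 on Rnor_6.0, was not detected in any TNF-α library (0 counts) and had 377, 316 and 280 counts in the TNF-α+EMO libraries, a rise of at least 113-fold against a floor of 3 counts per library. The row called lower has an L23 domain, with 58, 53 and 51 counts with TNF-α and 0 in each TNF-α+EMO library. These rows were named after their values were seen.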
